A study of Mus musculus with 8 samples.

Results

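Ribosome biogenesis is the building of ribosomes from ribosomal RNA and proteins, most of it in the nucleolus. RNA polymerase I makes a long precursor RNA there, small nucleolar ribonucleoproteins (snoRNPs) modify it, and separate sets of factors shape it into the small and the large ribosomal subunit. The transcription factor MYC is known to drive many of these genes, and FUBP1, which binds single-stranded DNA upstream of MYC, is known for regulating that gene. The 39 ribosome biogenesis and nucleolar genes described here were chosen by their symbols, as known members of the pathway. All 39 were found among the 47729 genes of the table, and all 39 passed the filter on low counts.

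Sorted leukaemic bone marrow cells were compared between 4 mice with an shRNA against Fubp1 and 4 mice with a scrambled shRNA. In both groups C57BL/6 donor marrow, from mice given 5-fluorouracil, carried BCR-ABL1 with a red fluorescent reporter from a retrovirus and the shRNA with a Venus reporter from a lentivirus, and the recipients had received 900 cGy. BCR-ABL1 is the fusion kinase of chronic myeloid leukaemia. Live marrow cells with both reporters and without lineage markers were sorted and their total RNA sequenced. The sources used here give neither the ages of the mice nor the shRNA sequences.

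Libraries held 24042761 to 44761356 counts in the Fubp1 shRNA group and 22465303 to 38495006 in the scrambled group. The rarest member, Fbl, still had at least 1339 counts in every library. Fubp1 itself measured 281, 228, 220 and 239 CPM (counts scaled to library size, here with TMM factors) in Fubp1 shRNA replicates 1 to 4, against 296, 284, 291 and 396 CPM in scrambled replicates 1 to 4. The groups did not overlap, though by little, at 281 and 284 CPM, and the mean was 76.4% of the scrambled one (log2 fold change -0.39, SE 0.12). By edgeR's quasi-likelihood test this missed the threshold of 0.05 (adjusted p = 0.0604). The authors' deposited table calls Fubp1 lower (log2 fold change -0.38, adjusted p = 0.0157). Markers of mature lineages, which the sort was meant to remove, were detected. The summed level of 5 monocyte and macrophage markers was 9.17 to 125 CPM in the Fubp1 shRNA and 4.25 to 11.4 CPM in the scrambled libraries. That of 6 T and NK cell markers was 2.03 to 86.7 CPM in the Fubp1 shRNA and 1.804 to 8.13 CPM in the scrambled libraries, nearly all of it from Nkg7, with Cd3e at 0 in every library. That of 8 mature neutrophil markers was 0.666 to 25.5 CPM in the Fubp1 shRNA and 1.35 to 6.62 CPM in the scrambled libraries. The B cell markers summed to 0.444 to 3.67 CPM in the Fubp1 shRNA and 0.167 to 0.805 CPM in the scrambled libraries, with Ms4a1 at 0 in every library. In these 4 lists only 3 monocyte and macrophage, 1 T and NK cell, 3 mature neutrophil and 1 B cell gene were tested. The others did not pass the filter on low counts. None of the tested genes was called by edgeR. All 3 monocyte and macrophage genes (Csf1r, Ly6c2 and Cd68) and Nkg7 had an unadjusted p under 0.05, each with a higher fitted level in the Fubp1 shRNA group. The summed level of 9 erythroid markers was 6232 to 8946 CPM in the Fubp1 shRNA and 8463 to 9278 CPM in the scrambled libraries. The summed level of 5 early granulocyte markers (Mpo, Elane, Prtn3, Ctsg and Ms4a3) was 85.8 to 3583 CPM in the Fubp1 shRNA and 35.4 to 330 CPM in the scrambled libraries, and none of the 5 was at 0 in all libraries. By edgeR's quasi-likelihood test 5 of the 9 erythroid markers were lower and 1 higher, and 0 of the 5 granulocyte markers were called, with all 5 higher at an unadjusted p under 0.05. The summed level of 4 megakaryocyte markers was 111 to 190 CPM in the Fubp1 shRNA and 49.97 to 64.1 CPM in the scrambled libraries, and 2 of the 4 were higher. Progenitor markers (5 genes) summed to 237 to 397 CPM in the Fubp1 shRNA and 285 to 439 CPM in the scrambled libraries. None was called by edgeR, with Ptprc and Cd48 higher at an unadjusted p under 0.05. Mast and basophil markers (3 genes) summed to 1.05 to 40.2 CPM in the Fubp1 shRNA and 0.944 to 9.69 CPM in the scrambled libraries, with 0 called. The part of these cell types in the results on the members was not tested. In bulk RNA, fewer cells of a type and less RNA per cell cannot be told apart.

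Promoter sequences of Rrn3 and Ltv1, members that fell, are shown because both hold CACGTG, the E-box that MYC with its partner MAX is known to bind. They come from RefSeq on GRCm38.p6, with the motif in capitals. For Rrn3 the bases are the 250 before its start, chr16:13780449-13780698 on the plus strand. For Ltv1 they are 30 bases after its start, chr10:13193092-13193121 on the minus strand.
Rrn3: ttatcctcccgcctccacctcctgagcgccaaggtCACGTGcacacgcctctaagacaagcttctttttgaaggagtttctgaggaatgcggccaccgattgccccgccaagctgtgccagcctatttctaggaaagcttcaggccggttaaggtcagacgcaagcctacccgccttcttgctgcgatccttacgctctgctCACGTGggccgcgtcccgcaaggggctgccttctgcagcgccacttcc
Ltv1: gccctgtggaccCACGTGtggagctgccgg

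The motif reads the same on both strands. The RefSeq table, with windows of 250 bases before to 50 after each start, held 33 of the 39 members, and 8 of these (24.2%) had a CACGTG in a window. They were Rrn3, Ltv1, Nop2, Utp20, Pes1, Mybbp1a, Nle1 and Wdr43. Of the other members that fell, Dkc1 and Wdr12 had no CACGTG in any window, and Npm1 had no window. The share was 20 of 111 among the other biogenesis factors described further on, 10.2% among cytosolic ribosomal protein genes, 12.1% among tested genes and 8.09% among all genes in the table. Of the 9 matches in the members 6 lay in the 50 bases after the start (66.7%), at positions 3 to 41, against 13.9% of all 2589 matches in the table. These are letter matches in a window, with no test, and say nothing of binding. Rrn3 and Ltv1 were called lower. Not called were Pes1 (log2 fold change -0.18), Utp20 (-0.13), Nle1 (-0.12), Wdr43 (-0.11), Nop2 (-0.10) and Mybbp1a (-0.01). The part of the motif in these levels was not tested.

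Most members were slightly lower with the Fubp1 shRNA, and few passed the test. In 36 of the 39 (92.3%) the fitted log2 change was negative, and the median was -0.14 within a range of -0.35 to 0.15. Over all 13462 tested genes 49.8% were negative and the median was 0.00. Over the 4133 that were at least as abundant as the lowest member 65.2% were negative and the median was -0.06. After adjustment over all tested genes 5 members were lower, namely Npm1, Rrn3, Wdr12, Ltv1 and Dkc1, and 0 were higher by edgeR's quasi-likelihood test. That is 12.8% of the members, where 7.29% of all tested genes and 12.2% of those 4133 were called lower. Called higher were 8.02% and 4.38%. The share of members called lower was thus close to that of the 4133, a set with a floor on abundance and no upper bound. At an unadjusted p under 0.05, 13 members were lower and 0 higher, where 15.5% of tested genes were lower and 18% higher, and 25.0% of the 4133 were lower and 10.1% higher. In 12 members all 4 Fubp1 shRNA libraries lay below all 4 scrambled ones, where 11.1% of all tested genes and 17.1% of the 4133 did so. Of the members 0 lay above, against 9.54% of all tested genes and 6.63% of the 4133. DESeq2 called 8 members lower and 0 higher, where it called 10% of its genes lower and 13.1% higher. With limma-voom 5 were lower and 0 higher, where 6.84% of genes were lower and 6.25% higher.

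**Figure D1:**
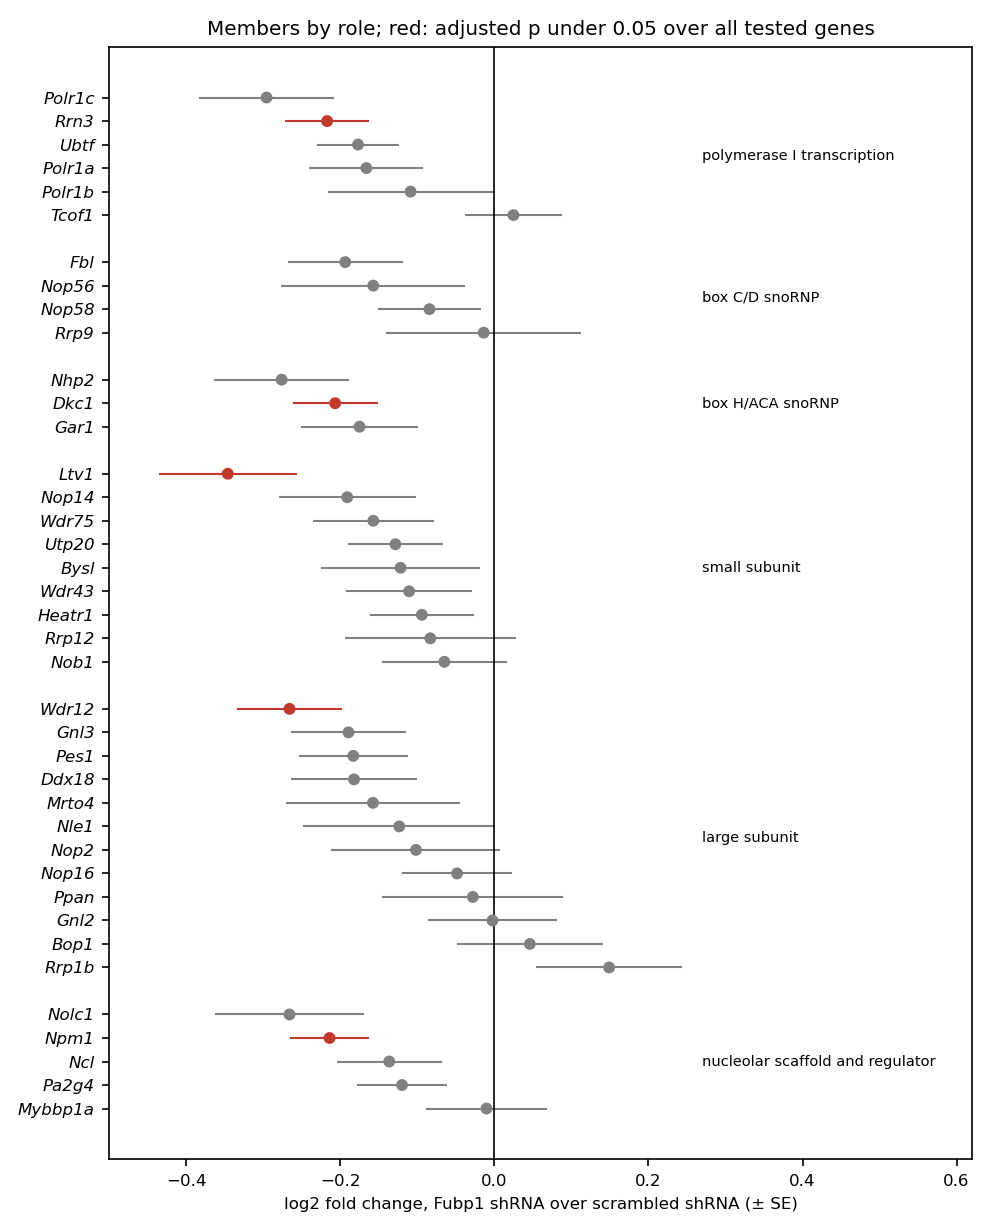
Log2 fold change, Fubp1 shRNA over scrambled shRNA, with its standard error for each of the 39 members, grouped by role; red marks the 5 with an adjusted p under 0.05 over all tested genes. Points lie below 0 in 36 members, and the 3 above 0 are Tcof1, Bop1 and Rrp1b.

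Among the nucleolar scaffold and regulator genes 1 of 5 fell, where 7.29% of all tested genes and 12.2% of the 4133 were called lower. These shares apply to each role below, and the small counts were not compared between roles. Npm1, nucleophosmin, an abundant chaperone of the nucleolus and a gene often mutated in human acute myeloid leukaemia (ENSMUSG00000057113, chromosome 11 from 33152287 to 33163206 on the minus strand, GRCm38), measured 1055, 1105, 1022 and 1065 CPM in Fubp1 shRNA replicates 1 to 4, against 1195, 1181, 1243 and 1307 CPM in scrambled replicates 1 to 4. The groups were apart by more than their spread, and the level was 86.2% of the scrambled mean (log2 fold change -0.21, SE 0.05, adjusted p = 0.0290 by edgeR). Ncl, nucleolin, was the most abundant member by CPM, at 3610, 4012, 3720 and 3302 CPM in the Fubp1 shRNA libraries, against 3971, 3851, 3970 and 4306 CPM in the scrambled ones. Here Fubp1 shRNA replicate 2 stood above 3 of the 4 scrambled libraries, and the change missed the threshold (log2 fold change -0.14, SE 0.07, adjusted p = 0.195). Nolc1, a phosphoprotein that carries snoRNPs and polymerase I factors, averaged 707 ± 89.1 CPM in the Fubp1 shRNA and 851 ± 63.6 CPM in the scrambled libraries (SD, n = 4 each) with no overlap, at an adjusted p of 0.0911 by edgeR. Mybbp1a, a nucleolar MYB-binding protein, measured 1066, 1118, 1035 and 883 CPM in the Fubp1 shRNA libraries, against 1013, 996, 1003 and 1119 CPM in the scrambled ones. Its groups overlapped. Pa2g4, a growth-regulated nucleolar protein, was at 92.0% of its scrambled mean (adjusted p = 0.187).

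In polymerase I transcription 1 of 6 members fell, where 7.29% of all tested genes were called lower. Between groups 4 did not overlap, where 11.1% of all tested genes and 17.1% of the 4133 lay apart and lower. Rrn3 (ENSMUSG00000022682, chromosome 16 from 13780708 to 13814839 on the plus strand), the factor that makes polymerase I competent to start and whose promoter is printed above, measured 152, 156, 168 and 146 CPM in Fubp1 shRNA replicates 1 to 4, against 183, 182, 178 and 180 CPM in scrambled replicates 1 to 4. The scrambled libraries lay close together and all 4 Fubp1 shRNA libraries were lower (log2 fold change -0.22, SE 0.05, adjusted p = 0.0322 by edgeR). Ubtf, which binds ribosomal DNA, measured 513, 504, 535 and 491 CPM in the Fubp1 shRNA libraries, against 589, 568, 545 and 607 CPM in the scrambled ones. It did not overlap either but just missed the threshold (adjusted p = 0.0521), as did Polr1c, a subunit shared by polymerases I and III (log2 fold change -0.30, SE 0.09, adjusted p = 0.0509). Polr1a, the largest polymerase I subunit, measured 269, 311, 312 and 253 CPM in the Fubp1 shRNA libraries, against 314, 318, 330 and 323 CPM in the scrambled ones, an adjusted p of 0.153 by edgeR. Its second subunit, Polr1b, overlapped between groups (log2 fold change -0.11), and so did Tcof1, treacle, a polymerase I cofactor, at 0.02.

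In the box H/ACA snoRNP, which turns chosen uridines of ribosomal RNA into pseudouridine, 1 of 3 members fell, against 7.29% of all tested genes. Dkc1, dyskerin, its catalytic subunit and also a part of telomerase (ENSMUSG00000031403, chromosome X from 75095854 to 75109777 on the plus strand), measured 325, 356, 340 and 307 CPM in Fubp1 shRNA replicates 1 to 4, against 379, 381, 388 and 385 CPM in scrambled replicates 1 to 4. The groups did not overlap, with much less spread in the scrambled libraries (log2 fold change -0.21, SE 0.05, adjusted p = 0.0379 by edgeR). Nhp2, a small core protein, measured 255, 263, 247 and 208 CPM in the Fubp1 shRNA libraries, against 295, 283, 271 and 329 CPM in the scrambled ones. It too stayed apart between groups, with a larger fitted change and more spread (-0.28, SE 0.09, adjusted p = 0.0628). Gar1 averaged 95.3 ± 7.15 CPM in the Fubp1 shRNA and 108 ± 7.92 CPM in the scrambled libraries (SD, n = 4 each).

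The box C/D snoRNP, which places methyl groups on ribosomal RNA, showed no called member. By edgeR 0 of 4 passed, where 7.29% of all tested genes were called lower. At an unadjusted p under 0.05, 1 was lower (Fbl), where 15.5% of all tested genes were. DESeq2 and limma-voom called 0 as well. Nop58, a core scaffold, measured 522, 580, 601 and 496 CPM in the Fubp1 shRNA libraries, against 568, 580, 584 and 600 CPM in the scrambled ones. Its partner Nop56 measured 366, 395, 359 and 292 CPM in the Fubp1 shRNA libraries, against 348, 369, 381 and 478 CPM in the scrambled ones, where scrambled replicate 4 was highest and Fubp1 shRNA replicate 4 lowest. Fbl, fibrillarin, the methyltransferase, averaged 58.2 ± 2.73 CPM in the Fubp1 shRNA and 66.5 ± 5.81 CPM in the scrambled libraries (SD, n = 4 each, adjusted p = 0.105 by edgeR). Rrp9, which belongs to the U3 snoRNP, was at 99.1% of its scrambled mean.

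Among the 9 small subunit factors all fitted changes lay below 0 and 1 passed, against 7.29% of all tested genes called lower. Ltv1, an export and maturation factor of the small subunit (ENSMUSG00000019814, chromosome 10 from 13178140 to 13193168 on the minus strand), had the largest decrease of the 39, with 110, 120, 111 and 90.8 CPM in Fubp1 shRNA replicates 1 to 4, against 135, 131, 133 and 150 CPM in scrambled replicates 1 to 4. All Fubp1 shRNA libraries were below all scrambled ones, and the mean was 78.7% of the scrambled one (log2 fold change -0.35, SE 0.09, adjusted p = 0.0348 by edgeR). Wdr43, of the early processome that assembles on the nascent precursor, measured 330, 356, 316 and 289 CPM in the Fubp1 shRNA libraries, against 324, 328, 353 and 389 CPM in the scrambled ones. Heatr1, of the same early complex, measured 322, 348, 321 and 281 CPM in the Fubp1 shRNA libraries, against 329, 334, 346 and 349 CPM in the scrambled ones. Both overlapped between groups. The other 6, namely Utp20, Wdr75, Nop14, Rrp12, Bysl and the endonuclease gene Nob1, had fitted log2 changes between -0.19 and -0.06 and overlapped as well.

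Of the large subunit factors 1 of 12 fell, against 7.29% of all tested genes, with 10 fitted changes below 0 and 2 above. Wdr12 (ENSMUSG00000026019, chromosome 1 from 60069785 to 60098645 on the minus strand) belongs with Pes1 and Bop1 to the PeBoW complex, which is needed for maturation of the large subunit's RNA. Wdr12 measured 126, 139, 124 and 113 CPM in Fubp1 shRNA replicates 1 to 4, against 147, 144, 157 and 155 CPM in scrambled replicates 1 to 4 (log2 fold change -0.27, SE 0.07, adjusted p = 0.0345 by edgeR). Its groups were apart. Pes1 averaged 162 ± 14.2 CPM in the Fubp1 shRNA and 183 ± 7.64 CPM in the scrambled libraries (SD, n = 4 each) without overlap, at an adjusted p of 0.106 by edgeR. Bop1 did not share this pattern, with 241 ± 28.1 CPM in the Fubp1 shRNA and 233 ± 20.2 CPM in the scrambled libraries (SD, n = 4 each). The difference between these 3 changes was not tested. Gnl3, nucleostemin, a nucleolar GTPase of proliferating and stem cells, measured 350, 366, 360 and 299 CPM in the Fubp1 shRNA libraries, against 370, 388, 390 and 421 CPM in the scrambled ones. It did not overlap and had an adjusted p of 0.111. Nop2, an RNA methyltransferase, measured 317, 317, 275 and 237 CPM in the Fubp1 shRNA libraries, against 274, 306, 296 and 354 CPM in the scrambled ones, where the groups overlapped. The highest fitted change was that of Rrp1b, a nucleolar protein of pre-60S particles, at 160 ± 12.3 CPM in the Fubp1 shRNA and 144 ± 17.8 CPM in the scrambled libraries (SD, n = 4 each; log2 fold change 0.15, SE 0.09, adjusted p = 0.308 by edgeR). The remaining 6, Nop16, Ddx18, Ppan, Nle1, Mrto4 and Gnl2, had fitted log2 changes of -0.18 to -0.0026.

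**Figure D2:**
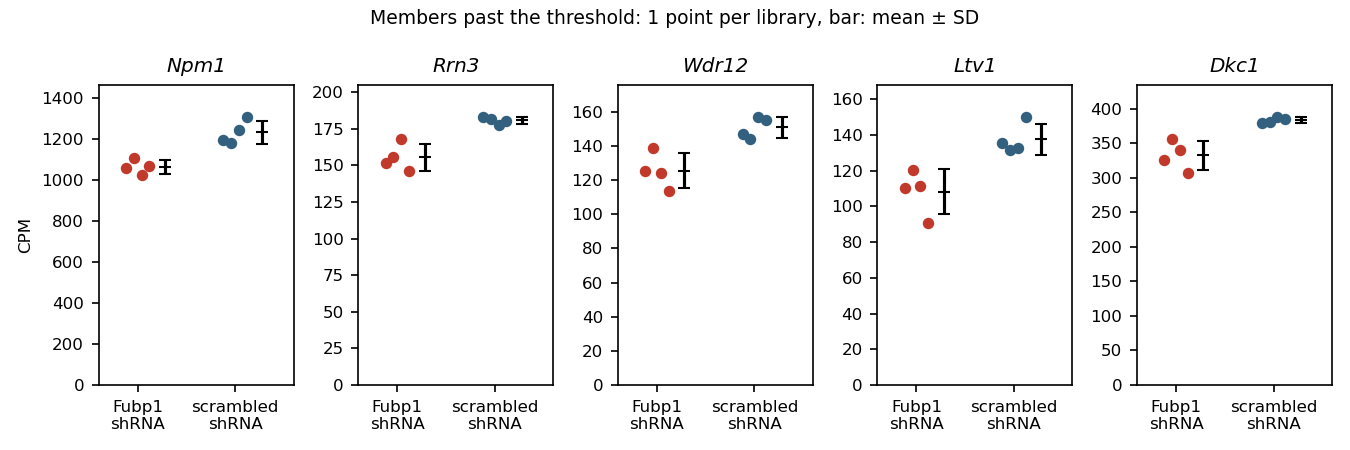
CPM of the 5 members that passed the threshold, 1 point per library, with mean ± SD of 4 libraries beside them and axes from 0. In each panel every Fubp1 shRNA library lies below every scrambled library, and the means stand at 78.7 to 86.7% of the scrambled means.

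None of the 5 calls was stable when single libraries were left out. By edgeR 0 members were called lower without Fubp1 shRNA replicate 1, where 3.12% of all tested genes were. It was also 0 without scrambled replicate 1 (2.67% of all tested genes lower), replicate 2 (1.81%) or replicate 3 (2.30%), and in each of these 4 fits 11 or 12 members were lower at an unadjusted p under 0.05. At that threshold 13% of all tested genes were lower without Fubp1 shRNA replicate 1, 13.7% without scrambled replicate 1, 12.8% without scrambled replicate 2 and 13.3% without scrambled replicate 3. The number was 2 without scrambled replicate 4 (7.71%), 4 without Fubp1 shRNA replicate 2 (3.41%), 4 without Fubp1 shRNA replicate 4 (5.04%) and 7 without Fubp1 shRNA replicate 3 (10.6%). The calls of Dkc1 and Wdr12 were lost without 6 of the 8 libraries in turn, those of Rrn3 and Ltv1 without 5 and that of Npm1 without 4, with adjusted p of up to 0.0996 by edgeR. Their fitted changes stayed below 0 in every fit run. With upper-quartile scaling, which moved the median of all tested genes to 0.03, Rrn3 alone kept its call (6.11% of all tested genes lower). With the replicate number as a block in the fit 0 members were called lower, against 1.52% of all tested genes. The other scaling and filters called 5 or 6 members lower. The number was 6 with DESeq2's size factors (against 7.21% of all tested genes) and 5 without a filter on low counts (against 3.07%). With a filter at 1 CPM in 4 libraries it was 5 (against 8.07%). The 5 without a filter were not the same genes: Dkc1 and Npm1 lost their calls there, and 2 other members gained one.

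Most members had their lowest level in the same library, and the libraries within a group differed. Of the 39 members, 36 had their lowest CPM of all 8 libraries in Fubp1 shRNA replicate 4, and 26 had their highest in scrambled replicate 4. The share of all tested genes that did the same was not counted, so this pattern is not shown to be particular to the members. The summed CPM of the members was 14544, 15648, 14716 and 12952 in Fubp1 shRNA replicates 1 to 4, against 15451, 15395, 15531 and 17153 in scrambled replicates 1 to 4. Fubp1 shRNA replicate 2 was therefore above 3 of the 4 scrambled libraries. Without Fubp1 shRNA replicate 4 the median log2 fold change of the members was -0.09, and 30 of 39 lay below 0. Leaving out both libraries numbered 4, a choice made after seeing these values, gave a median of -0.05, with 23 of 39 below 0 and 1 member called lower, Ltv1 (adjusted p = 0.0441 by edgeR), where 5.98% of all tested genes were lower. At an unadjusted p under 0.05, 10 were then lower and 3 higher, where 15.5% of all tested genes were lower and 15.3% higher.

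**Figure D3:**
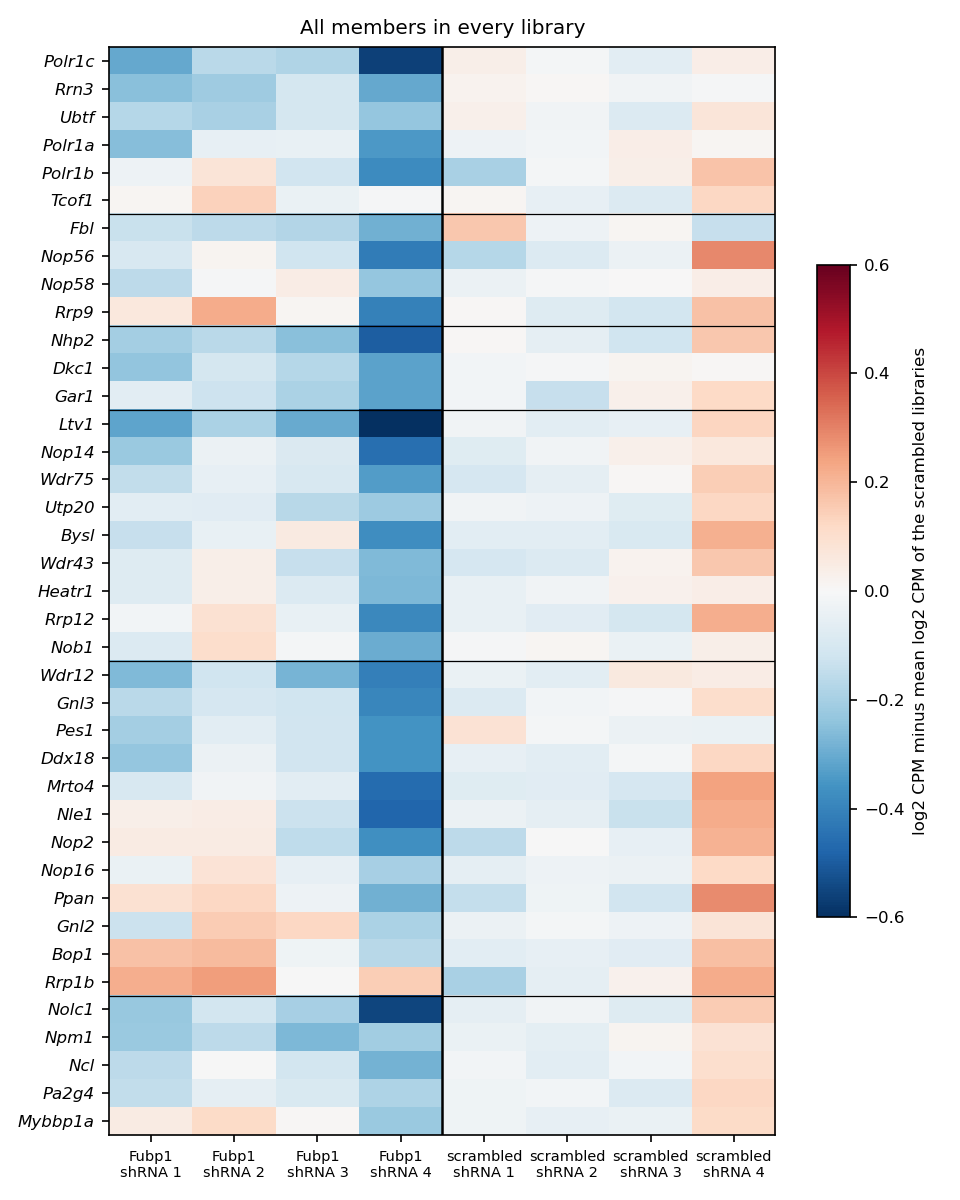
Log2 CPM of each member (rows, by role) in each library (columns) minus the mean log2 CPM of the 4 scrambled libraries; blue is lower and red higher. The column of Fubp1 shRNA replicate 4 is the lowest in 36 of 39 rows and that of scrambled replicate 4 the highest in 26.

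The library with the lowest members also had the most granulocyte transcript. The summed early granulocyte markers were 1963, 940, 85.8 and 3583 CPM in Fubp1 shRNA replicates 1 to 4, against 35.4, 164, 330 and 83.3 CPM in scrambled replicates 1 to 4. The centred mean log2 level of the members was -0.04, 0.06, -0.03 and -0.25 in Fubp1 shRNA replicates 1 to 4, against 0.02, 0.03, 0.03 and 0.19 in scrambled replicates 1 to 4. The levels did not follow the markers in every library, and the part of granulocyte transcripts in the member levels was not tested. Fubp1 shRNA replicate 2, at 940 CPM of these markers, had a member level above 3 of the 4 scrambled libraries. In Fubp1 shRNA replicate 3, where the markers lay within the scrambled range, the member level was below that of each scrambled library. Myc measured 204, 146, 96.3 and 251 CPM in Fubp1 shRNA replicates 1 to 4, against 209, 201, 247 and 254 CPM in scrambled replicates 1 to 4, with overlapping groups (log2 fold change -0.39, SE 0.27, adjusted p = 0.350 by edgeR). The Fubp1 shRNA library with the lowest members had the highest Myc of its group, which is 1 library only. The part of Myc in the member levels was not tested.

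**Figure D4:**
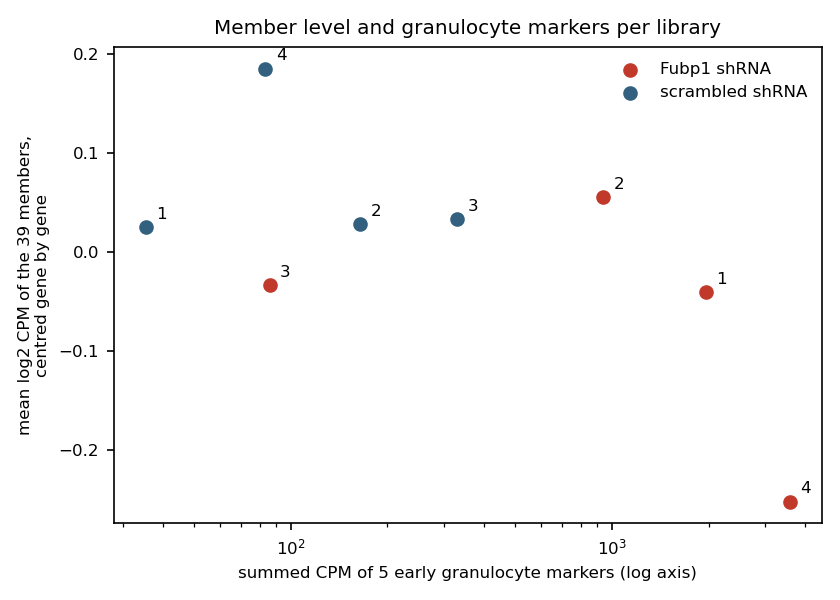
Centred mean log2 CPM of the 39 members against the summed CPM of 5 early granulocyte markers (log axis), 1 point per library with its replicate number. Fubp1 shRNA replicate 4 is at the lower right, at 3583 CPM and -0.25, and scrambled replicate 4 at the top, at 83.3 CPM and 0.19.

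The rest of the pathway was read from other lists. A list of 133 other biogenesis factors, drawn up by function, had 132 genes in the table, and 1 was not analysed here. All 132 were tested. Of these 13 were lower (9.85%) and 0 higher by edgeR, with a median log2 fold change of -0.13. This stands between the 7.29% of all tested genes and the 12.2% of the 4133 called lower. Some of the 132 lay below the floor of the 4133, set by the lowest member, Fbl. Rpp38 averaged 19.0 CPM in the scrambled libraries, where Fbl averaged 66.5 CPM. DESeq2 called 24 lower and 0 higher, where it called 10% of its genes lower. The edgeR count was 2 to 8 without any 1 of Fubp1 shRNA replicates 1, 2 and 4 or scrambled replicates 1, 2 and 3. The strongest was Wdr3, a small subunit processome protein, with 134, 150, 136 and 125 CPM in Fubp1 shRNA replicates 1 to 4, against 178, 190, 201 and 208 CPM in scrambled replicates 1 to 4. Its groups were far apart (log2 fold change -0.51, SE 0.07, adjusted p = 0.00567 by edgeR). Nvl, an ATPase of large subunit maturation, averaged 139 ± 5.11 CPM in the Fubp1 shRNA and 167 ± 6.18 CPM in the scrambled libraries (SD, n = 4 each; adjusted p = 0.0140 by edgeR). Rrp36, needed for early cleavage of the precursor, averaged 32.7 ± 0.543 CPM in the Fubp1 shRNA and 39.7 ± 0.951 CPM in the scrambled libraries (SD, n = 4 each; adjusted p = 0.0176). Exosc7, of the exosome that trims ribosomal RNA, fell by 0.24 (SE 0.06, adjusted p = 0.0264) on the log2 scale. The 80 cytosolic ribosomal protein genes were counted very unevenly. Their mean in the Fubp1 shRNA libraries ran from 2.38 CPM for Rpl23a to 2876 CPM for Rpl4, and the cause of the low counts was not tested. Of these 80 genes 15 were lower (18.8%) with a median of -0.19, against 7.29% of all tested genes and 12.2% of the 4133. That count was 1 to 4 without any 1 of Fubp1 shRNA replicates 1, 2 and 4 or scrambled replicates 1, 2 and 3, and 34 without Fubp1 shRNA replicate 3. Of 76 tested mitochondrial ribosomal protein genes 8 were lower (10.5%) with a median of -0.12, and 2 to 4 without any 1 library other than Fubp1 shRNA replicate 3. No test of the difference between these lists was made.

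**Figure D5:**
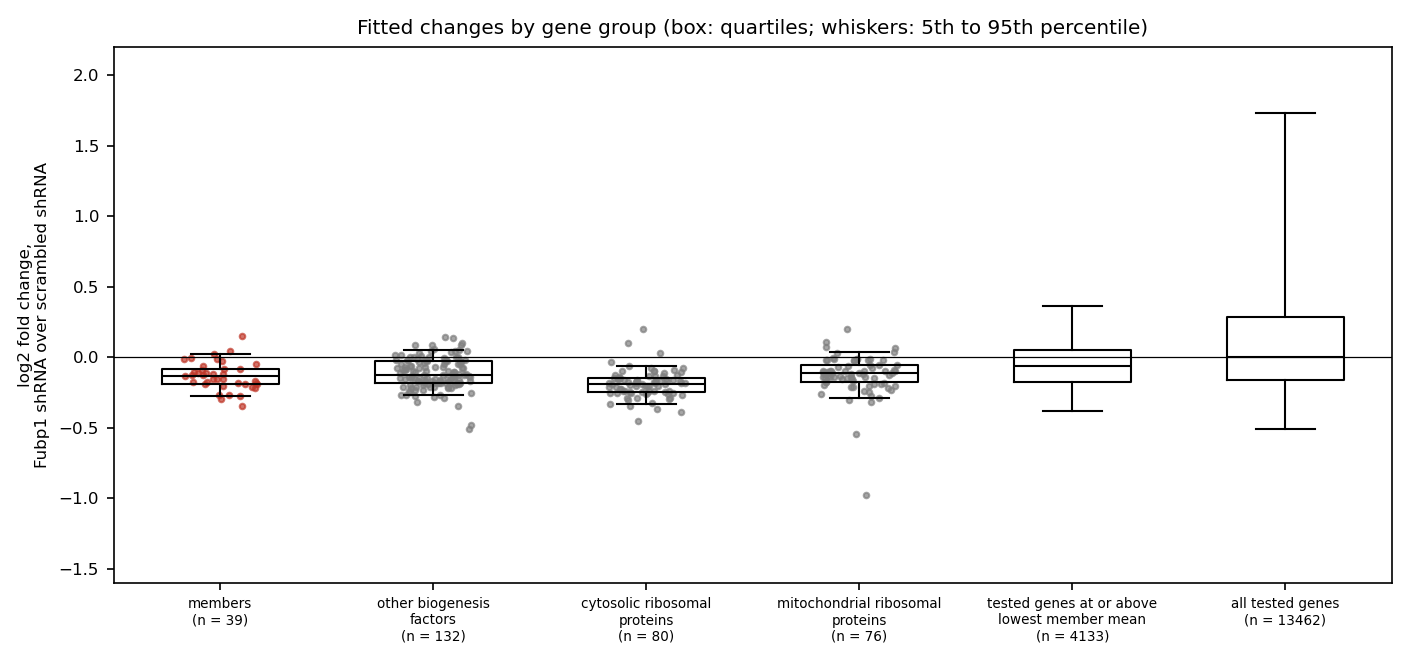
Log2 fold changes, Fubp1 shRNA over scrambled shRNA, in the members, the other biogenesis factors, the cytosolic and the mitochondrial ribosomal protein genes, the 4133 tested genes at or above the lowest member's mean CPM, and all tested genes; boxes are quartiles and whiskers the 5th to 95th percentile. Medians are -0.14, -0.13, -0.19, -0.12, -0.06 and 0.00 from left to right.

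Per kilobase of merged annotated exon, a scale that counts every isoform, levels over all 8 libraries were highest for Npm1 (430 CPM per kb), Ncl (377) and Pa2g4 (293) and lowest for Wdr12 (11.6) and Fbl (14.8). The members that fell thus include both ends of this scale. In the GENCODE M21 annotation 17 members share exon bases with a gene on the opposite strand, among them Dkc1 (45 bases with Mpp1) and Wdr12 (61 bases with Carf), and the strand setting of the counting is not given. There were 21 snoRNA genes inside 7 members, Nop56, Nop58, Ncl, Gnl3, Wdr43, Ppan and Dkc1.

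By the adjusted p of the authors' deposited table, members called lower numbered 8 and members called higher 0, where 9.43% of its genes with an adjusted p were lower and 11.9% higher. These were the 5 called here with Polr1c (adjusted p = 0.0195), Ubtf (0.0113) and Nhp2 (0.0275), each value from the authors' deposited table. The sign of the change in the authors' deposited table was the same as here in all 39.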

How the data were processed

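Read counts of each gene in 8 libraries, 1 mouse each, were deposited without normalization by the authors. The table also gives the authors' log2 fold changes, p-values, mean signal over size factors and test score; per the submitters' processing notes CASAVA 1.8 and DESeq2 1.18.1 were used. The sources used here give no aligner, counting strand or build. The number that ends each sample's description picked its column, and 0 columns stayed unmatched. Coordinates, exon lengths and overlaps come from GENCODE M21 (GRCm38), which held 47224 of the 47729 gene IDs.

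Counts were tested in R 4.3.3 with edgeR 4.0.16: filterByExpr with the group (13462 genes kept), TMM, robust quasi-likelihood fit with the group alone, two-sided F test, Benjamini-Hochberg adjustment over all tested genes, threshold 0.05. Log2 fold changes are Fubp1 shRNA minus scrambled shRNA. DESeq2 1.42.0 and limma 3.58.1 (voom), other scalings and filters, a replicate block and fits without each library were alternatives. The fit was tested on simulated data.

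Members and lists were chosen with earlier results of these data known. All members are accounted for; values in every library are given for called members and the 2 most abundant of each role, and the 4 other factors named have the smallest p among those called. Libraries within a group differed by 10.7 to 88.9 chi-square per degree of freedom, so none was a copy.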

Additional observations from a re-analysis of the deposited data

Results flagged for a closer look

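In 5 of 78 sets of 4 libraries (39 members in 2 groups) 1 library stood far from the other 3, where chance gives about 1 in 20. All 5 were the highest value of scrambled replicate 4, the library where 26 of the 39 members were at their highest. The 78 sets share the same 8 libraries and are not independent, so the count is not shown to exceed chance. Bysl was at 179 CPM there, with the next scrambled library at 148. Bop1 was at 263 CPM, with the next at 225. Nop16 was at 136 CPM, with the next at 123. Mrto4 was at 185 CPM, with the next at 149. Mybbp1a was at 1119 CPM, with the next at 1013. None of these 5 genes was called in the comparison.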

How the results depend on the processing

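Members called higher numbered 0 in all 16 alternatives, and their median log2 fold change stayed below 0 (-0.18 to -0.05). Members called lower (5 as reported) numbered 1 with upper-quartile factors, 8 with DESeq2 and 1 without both libraries numbered 4, a choice made after seeing the data, and 0 to 7 without single replicates. For the other biogenesis factors (13) these counts were 5, 24, 6 and 2 to 16, and for the mitochondrial ribosomal protein genes (8) they were 5, 13, 2 and 2 to 10, with 2 when no low count filter was used. For the cytosolic ribosomal protein genes (15) the count was 24 with DESeq2 and 1 to 34 without single replicates. All genes called (2062) numbered 3588 with DESeq2 and 526 to 3425 without single replicates. Fubp1 passed the threshold without a low count filter (-0.41, adjusted p = 0.0365 by edgeR) and with DESeq2 (-0.39, adjusted p = 0.0145), over a range of adjusted p from 0.0145 to 0.136. The causes were not tested, beside the fewer libraries of the fits that leave some out.

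Replicate numbers did not pair the libraries: same-numbered deviations correlated at -0.42, 0.02, -0.56 and -0.22, and 0 of 4 Fubp1 shRNA libraries matched their own number best. With the number as a replicate block 400 genes were called, with 0 members lower (10 at an unadjusted p under 0.05, where 12.4% of all tested genes were, and 1.52% of all tested genes called lower), 1 other biogenesis factor, 0 cytosolic and 2 mitochondrial ribosomal protein genes.

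Signs of the log2 fold change turned in 15 members, none of them called, with reported values of -0.16 to 0.05. Gnl2 was at 0.0013 with DESeq2 size factors. With upper-quartile factors Gnl2 was at 0.025, Rrp9 at 0.015 and Mybbp1a at 0.018, and with the 1 CPM filter they were at 0.014, 0.0033 and 0.0070. Without single replicates the range spanned 0 for Gnl2 (-0.056 to 0.052), Rrp9 (-0.099 to 0.096), Mybbp1a (-0.052 to 0.053), Tcof1 (-0.012 to 0.050), Bop1 (-0.00093 to 0.11), Rrp12 (-0.14 to 0.0047), Nob1 (-0.12 to 0.0027) and Ppan (-0.086 to 0.059). Without both libraries numbered 4, signs turned in Polr1b (0.031), Nop56 (0.030), Rrp9 (0.16), Rrp12 (0.085), Bysl (0.030), Nob1 (0.017), Nop2 (0.053), Nop16 (0.041), Ppan (0.16), Nle1 (0.059), Mrto4 (0.020), Gnl2 (0.081) and Mybbp1a (0.096).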

Other observations

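Fubp1 shRNA replicate 4 was the lowest library not for the members alone. The centred mean log2 level was -0.22 there for the other biogenesis factors, -0.22 for the cytosolic and -0.19 for the mitochondrial ribosomal protein genes, each the lowest of the 8 libraries. Scrambled replicate 4 was the highest for the other biogenesis factors (0.14) and the mitochondrial ribosomal protein genes (0.14), but not for the cytosolic ribosomal protein genes, where scrambled replicate 2 (0.12) was above it (0.11). Col1a1, a collagen gene of stromal cells, was at 332 CPM in Fubp1 shRNA replicate 1 and at 6.86 CPM or less in the other 7 libraries, while the endothelial gene Cdh5 was at 0.0278 CPM or less in all 8.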
